A study of Mus musculus with 20 samples.

Results

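Body weight and diet moved together in these mice, and the question addressed here was which transcripts of the heart followed body weight itself once diet was held fixed. All 20 libraries of the series carry a body weight in their labels, so the relation was examined in 20 of 20. RNA was taken from the left ventricle of male mice that were given 1 of 4 diets, with 5 mice in each group. The diets were NP, with a normal content of protein, LP, with little protein, HF, rich in fat with a normal content of protein, and HF + LP, rich in fat with little protein. The LP and HF + LP diets were low in casein, and no group carried a genetic alteration or a drug. By their labels all mice were 18 months old, whereas the study's methods place tissue collection earlier, after a diet that began in middle age. The labels give the weight without a unit, and it was read as grams, which is an assumption from the usual weight of a mouse. The mice are wild-type animals of 1 sex on purified diets, they were fed when collected, and each is named here by its diet and the animal number in its label.

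A heart transcript can differ with weight for reasons that act within any diet or only because heavier mice ate another diet. With diet in the model, the slope of a gene rests on heavy and light mice of the same diet. Without diet, it rests mainly on the differences between the diet groups. Among the transcripts described, targets of the nuclear receptor PPAR alpha answer to fatty acid supply, interferon-stimulated genes are driven by IRF and STAT transcription factors, and the contractile genes of smooth muscle mark the walls of vessels. Slopes are given as the log2 change of the normalized level per 10 g of body weight ± SE. Called genes are those with an adjusted p (Benjamini-Hochberg) below 0.01 in edgeR's quasi-likelihood test and more than 50 normalized counts on average. The tissue is a mixture of cells, so that fewer cells of a type and less RNA per cell cannot be told apart.

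NP mice weighed 33.3, 36.7, 46, 46.9, and 52.3 g. LP mice weighed 29.9, 31.1, 32, 33.3, and 36.9 g. HF mice weighed 56.1, 58.7, 59.2, 59.6, and 60.9 g. HF + LP mice weighed 41.2, 44.8, 48.3, 52.5, and 56.1 g. Every HF mouse was heavier than every NP and LP mouse, and the lightest HF mouse weighed as much as the heaviest HF + LP mouse. Differences between diets made up 80.8% of the variation in weight, and the SD of weight within a diet was 5.16 g. Of the variation within diets, NP held 57.3%, HF + LP 33.0%, LP 6.77%, and HF 2.92%, so a slope within diets describes chiefly the NP and HF + LP mice.

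**Figure D1:**
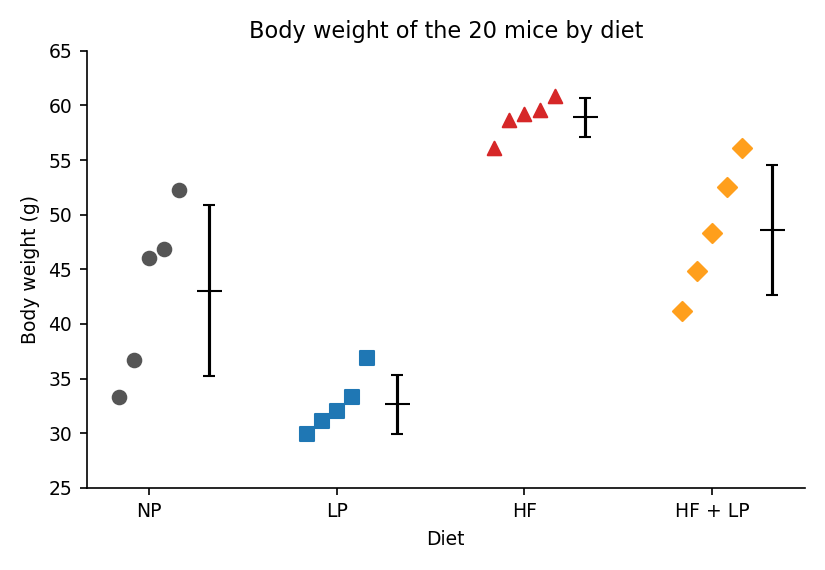
Body weight in g (vertical axis) of each mouse by diet (horizontal axis), with 5 points per diet and the mean ± SD as a black bar beside them. The HF points span 4.8 g and lie above all NP and LP points, whereas the NP points span 19 g.

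The libraries held between 12559607 and 23331907 counts, and markers of ventricular muscle were abundant in each, at 37965 to 54945 CPM, counts scaled to library size, summed over 8 genes. LP mouse 13 and LP mouse 20 stood apart. LP mouse 13, the heaviest of its group, had the deepest library, 627 CPM of 6 adipocyte markers against a median of 2.1 CPM over all libraries, and 17680 CPM of 5 atrial markers, whose sum ranged from 50.3 CPM upward. LP mouse 20 had 138 CPM of the adipocyte markers and 414 CPM of 4 lymphocyte markers, which reached at most 5.89 CPM elsewhere. Fits without both libraries, an alternative chosen after seeing the data, are given beside some of the results that they moved. Neither the depth of a library (slope −0.09 ± 0.13 on the log2 scale per 10 g, permutation p = 0.418) nor its share of mitochondrially encoded counts (−0.82 ± 1.43 percentage points per 10 g, permutation p = 0.577) passed a test against weight within diets, and both had an adjusted p of 0.577 over the 2 measures.

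Within diets, no gene was called for body weight, which is 0% of the 13991 genes tested, and the smallest adjusted p was 0.999. An unadjusted p under 0.05 was reached by 376 genes, or 2.69%, namely 227 (1.62%) with higher and 149 (1.06%) with lower levels in heavier mice. That share is below the fraction of 0.05 expected at this threshold if no gene followed weight. Unadjusted p-values of single genes within diets are therefore given as a description. limma-trend and DESeq2 also called 0 genes, with 397 and 371 genes at an unadjusted p under 0.05. Without diet in the model, 1 gene was called (0.00715%), against 2 with limma-trend and 134 with DESeq2. That count was 42 without NP mouse 4, 7 without NP mouse 5, and 0 without LP mouse 15 or HF mouse 4. In edgeR with all mice, 2208 genes reached that unadjusted p, namely 803 (5.74%) with higher and 1405 (10%) with lower levels in heavier mice. At an adjusted p under 0.05, 50 genes (0.357%) were higher and 94 (0.672%) lower. The median SE of a slope was 0.15 within diets and 0.07 without diet. Of the 376 genes, 61 had the same sign and an unadjusted p under 0.05 without diet and 6 had the opposite sign.

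The slope across the 4 diet means, which uses none of the differences between mice of a diet, called 93 genes (0.665%). The slope within diets had the same sign as the slope across diet means in 50 of the 93 (53.8%) and in 46.5% of all genes tested. It had an unadjusted p under 0.05 in 6 of the 93, or 6.45%, against 2.69% of all genes tested. In a test added after the other fits had been seen, the difference between the 2 slopes was past the threshold for 0 genes (edgeR, smallest adjusted p = 0.191), although 1027 genes (7.34%) had an unadjusted p under 0.05.

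Diet itself, tested over the 4 groups without weight, called 67 genes (0.479%). Leaving out 1 mouse gave 33 without HF mouse 4, 34 without HF mouse 5, 36 without HF mouse 2, and 101 without LP mouse 5. The 67 diet-linked genes were chosen on the same libraries, so that their slopes without diet are a description. Within diets, 33 of the 67 had the sign of their slope without diet and 34 the opposite sign. The median size of their slope was 0.10 within diets and 0.38 without diet. An unadjusted p under 0.05 within diets was reached by 5 of them (7.46%, against 2.69% of all genes tested), and none was called. The 95% interval within diets held the slope without diet for 27 of the 67 and left it out for the rest. The difference between the slopes across and within diets had an unadjusted p under 0.05 for 36 of the 67, against 7.34% of all genes. Since the 67 were chosen for differences between diets on the same libraries, which can raise their slopes across diets, nothing is read from that count.

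**Figure D2:**
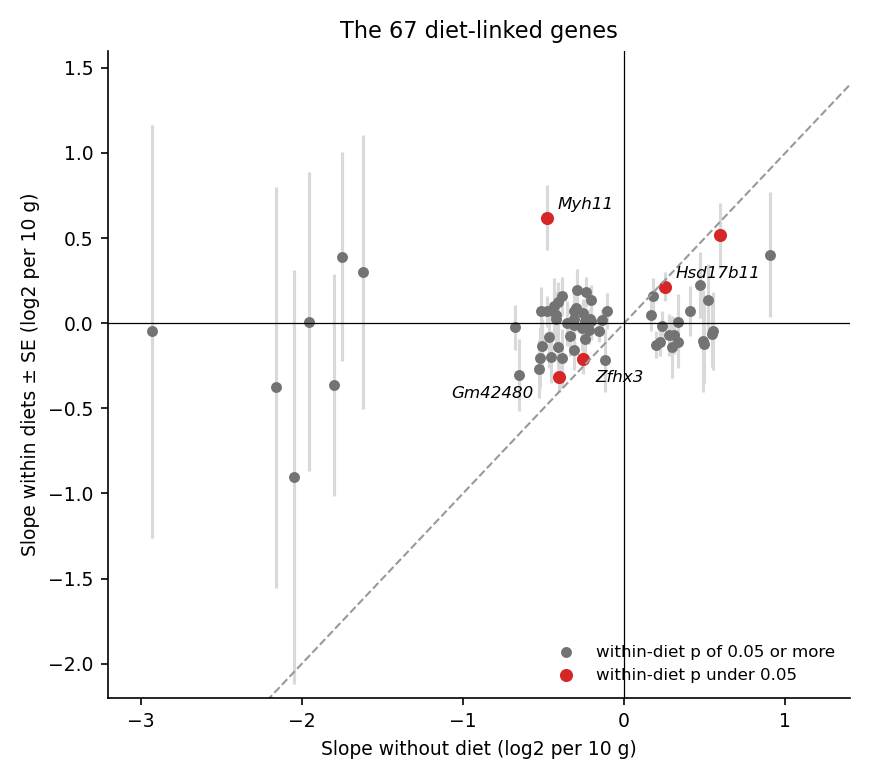
Slope within diets with its SE (vertical axis) against the slope without diet (horizontal axis), both as log2 change per 10 g, for the 67 diet-linked genes. Red points are the 5 genes with an unadjusted p under 0.05 within diets, 4 of them with names. The dashed line marks equal slopes. Most points lie near 0 on the vertical axis, and Myh11 lies above 0 on it while its slope without diet is below 0.

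Gm42480 was the diet-linked gene with the smallest p within diets, and the only gene called without diet. It is an unclassified transcript on chromosome 5 (GRCm38, 57793159 to 57795753, plus strand) that lies inside Pcdh7, a protocadherin gene, on the same strand. The diet-linked genes described next, 4 of the 5, were chosen after their values were seen. From the lightest to the heaviest mouse, the normalized count of Gm42480 was 403, 359, 332, 278, and 239 in NP, 396, 349.8, 227, 329.9, and 281 in LP, 243, 208, 199, 223, and 184 in HF + LP, and 172, 153, 141, 153, and 149.6 in HF. The order followed weight without exception in NP, and every HF mouse was below every other mouse. The slope was −0.32 ± 0.09 within diets (unadjusted p = 0.0021, adjusted p = 0.999) and −0.40 ± 0.05 without diet (adjusted p = 0.0018). It was −0.31 ± 0.07 within diets without LP mice 13 and 20.

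Hsd17b11, a lipid droplet dehydrogenase, had a slope of 0.22 ± 0.09 within diets and 0.25 ± 0.05 without diet (unadjusted p within diets = 0.0213, and 0.219 without NP mouse 4, where the slope was 0.12). Its normalized counts ran from 520.2 to 882 in NP and from 822 to 1174 in HF + LP, without overlap between LP (557 to 605) and HF (792 to 1012). Zfhx3, a homeobox transcription factor, had −0.21 ± 0.09 within diets and −0.26 ± 0.05 without diet (unadjusted p within diets = 0.0296, and 0.0543 without LP mice 13 and 20). For Gm42480, Hsd17b11, and Zfhx3, the slopes within and without diet differed by less than the SE of the slope within diets.

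Myh11, the smooth muscle myosin heavy chain, had slopes of opposite sign. Its normalized count from the lightest to the heaviest mouse was 204, 287, 298, 390, and 494 in NP, 347, 221, 271, 375, and 986 in LP, 145.5, 108, 130.2, 131, and 172 in HF + LP, and 114, 123, 158, 126, and 118 in HF. NP and HF did not overlap, while within NP the level followed weight without exception. The slope was 0.62 ± 0.19 within diets (unadjusted p = 0.0046) and −0.48 ± 0.17 without diet. The difference between its slopes across and within diets was −1.36 ± 0.24, with an adjusted p of 0.191. Without LP mice 13 and 20 the slope within diets was 0.43 ± 0.12.

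**Figure D3:**
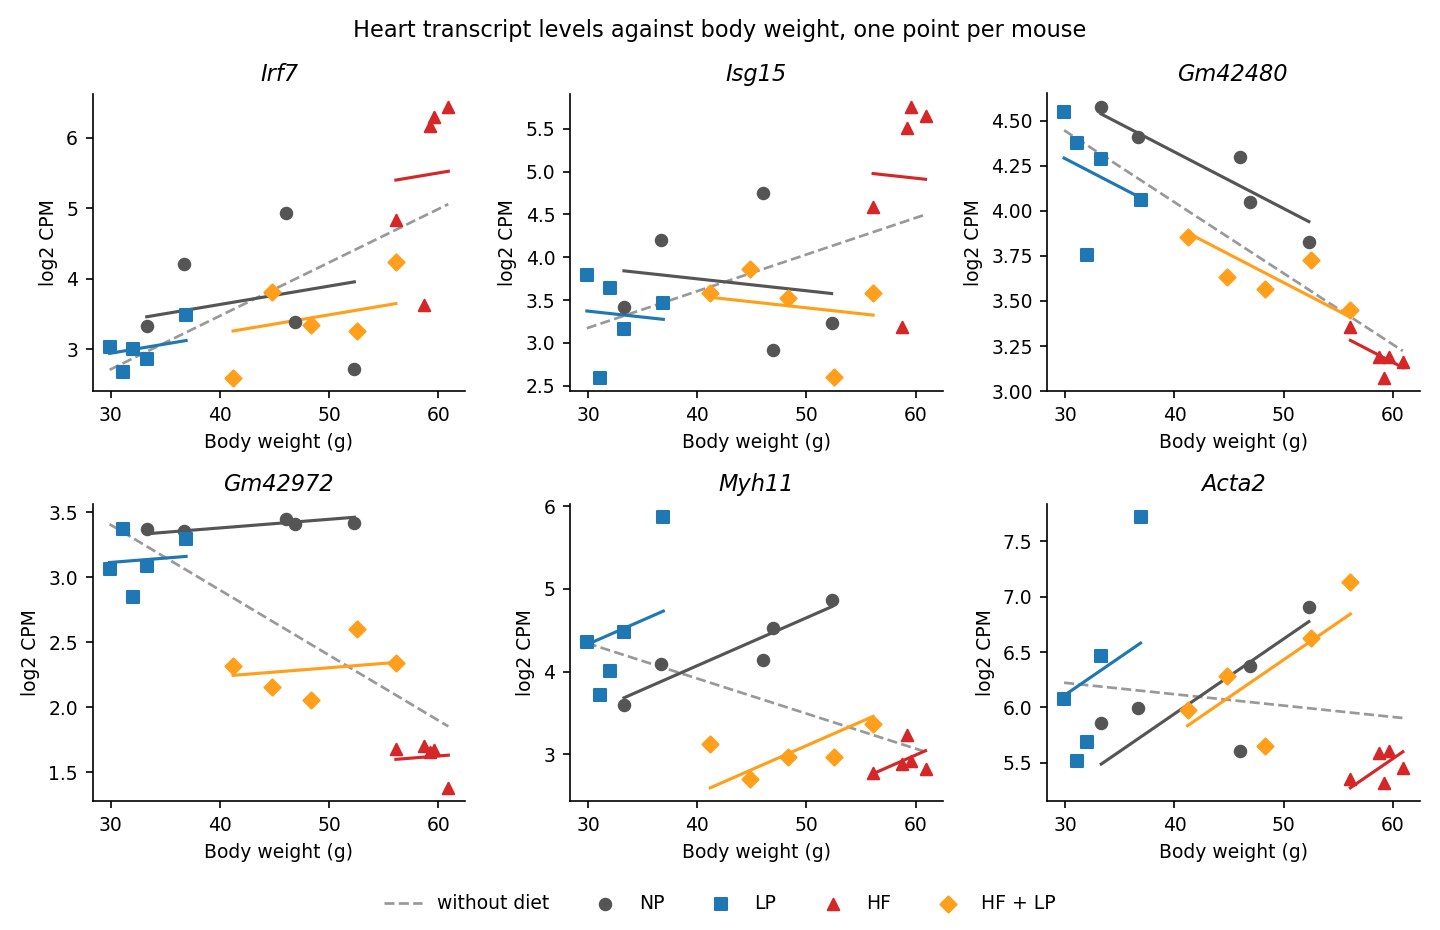
Level of 6 transcripts as log2 CPM (vertical axis) against body weight in g (horizontal axis), with 1 point per mouse and diets told apart by colour and shape. The dashed line is the least squares line without diet, and the coloured lines share the slope within diets. In Gm42480 both kinds of line run the same way, in Myh11 and Acta2 they cross, and in Isg15 and Gm42972 the coloured lines are nearly flat while the dashed line is steep.

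The interferon response list held 53 tested genes, and without diet 45 of them had an unadjusted p under 0.05 and a higher level in heavier mice, against 5.74% of all genes, with a median slope of 0.40 against −0.01 over all genes. Within diets the median slope was −0.01, 23 members were above 0 and 30 below, and no member had an unadjusted p under 0.05. That median is not firm in sign, since leaving out NP mouse 4 alone gave 0.15 and leaving out HF + LP mouse 4 gave −0.09. The lowest slope of a member within diets was −0.26 and the highest 0.40. The 95% interval within diets nevertheless held the slope without diet for 46 of the 53, so for most members the data within diets do not tell a flat slope from the one without diet.

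Interferon-stimulated genes carry a response element that is bound by IRF and STAT factors. The promoter sequences of RefSeq (GRCm38.p6, 250 bases before to 50 after the start) matched 42 of the 55 genes listed. The element, searched as GAAANNGAAA on both strands, was found for 24 of the 42, or 57.1%, against 3.99% of 27025 genes with a promoter. It is a match of letters and not a measured binding site. The 150 bases before the start of 3 genes are shown, because these genes had some of the smallest p without diet or stand for the list, with matches in capitals, 5′ to 3′ on the gene's own minus strand.
Isg15 (chr4:156200819-156200968): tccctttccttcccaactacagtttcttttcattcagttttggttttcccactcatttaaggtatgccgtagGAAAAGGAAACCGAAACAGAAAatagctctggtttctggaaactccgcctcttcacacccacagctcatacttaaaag
Ifi205 (chr1:174031756-174031905): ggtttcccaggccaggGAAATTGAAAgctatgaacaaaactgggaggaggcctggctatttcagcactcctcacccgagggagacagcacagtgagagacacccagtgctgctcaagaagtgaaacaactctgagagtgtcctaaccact
Irf7 (chr7:141266425-141266574): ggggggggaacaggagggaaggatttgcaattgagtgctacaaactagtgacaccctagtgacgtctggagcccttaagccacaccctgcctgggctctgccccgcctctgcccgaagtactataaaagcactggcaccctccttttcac
Isg15 held 3 overlapping matches, Ifi205 held 1, and these letters were not in the Irf7 window.

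Irf7, the interferon regulatory factor that amplifies the response, had a normalized count of 169, 312, 514, 175, and 109.8 in NP from the lightest to the heaviest mouse, 137, 107, 134, 121, and 188 in LP, 101, 236, 169.8, 161, and 319 in HF + LP, and 479, 209, 1219, 1325, and 1463 in HF. The highest NP level was that of a mouse of middle weight, and the heaviest NP mouse had the lowest. HF mice spanned 209 to 1463 within 4.8 g of weight. The slope was 0.40 ± 0.37 within diets (95% interval −0.37 to 1.17) and 0.91 ± 0.16 without diet (adjusted p = 0.0164). Within diets it was 0.77 without NP mouse 4 (unadjusted p = 0.0444) and 0.19 without NP mouse 5 (unadjusted p = 0.585), and also fell to 0.25 and 0.24 without HF + LP mice 3 and 4. The 2 HF mice with the lowest Irf7, 1 and 3, had 12345 and 4749 CPM of atrial markers, and the other 3 had 122 to 199 CPM. The part of atrial tissue in this spread was not tested.

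Isg15, a ubiquitin-like protein made in response to interferon, had a slope of −0.09 ± 0.33 within diets (−0.78 to 0.60) and 0.55 ± 0.15 without diet. Its normalized count in NP was 179.8, 311, 454, 127, and 158 from the lightest to the heaviest mouse, and in HF it was 405, 153, 774, 914, and 850.0. Ifi205, an interferon-inducible gene, had 0.18 ± 0.16 within diets (0.04 without NP mouse 6) and 0.41 ± 0.07 without diet. Ccl8, a chemokine, had −0.06 ± 0.20 and 0.55 ± 0.10. Cmpk2, a mitochondrial nucleotide kinase induced by interferon, had 0.31 ± 0.23 and 0.50 ± 0.09, Sp100, a nuclear body protein, had 0.25 ± 0.16 and 0.20 ± 0.07, and Parp9, an ADP-ribosyltransferase, had −0.26 ± 0.19 and 0.17 ± 0.09. These are the members with the smallest p within diets, and none had an unadjusted p under 0.05 there, although without NP mouse 4 Cmpk2 had 0.51 (unadjusted p = 0.0456). B2m, the invariant chain of MHC class I molecules, had −0.14 ± 0.14 within diets and 0.18 ± 0.08 without diet.

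Of 36 myeloid genes, 17 had an unadjusted p under 0.05 without diet and a higher level in heavier mice (against 5.74% of all genes) and 1 a lower level (against 10%), with a median slope of 0.14. Within diets the median was 0.00, 18 were above 0 and 18 below, and no member had an unadjusted p under 0.05. Ctss, a lysosomal protease, had 0.12 ± 0.12 within diets and 0.28 ± 0.06 without diet. Ms4a6c, a macrophage membrane protein, had 0.20 ± 0.18 and 0.43 ± 0.08. The macrophage marker Lyve1 had −0.24 ± 0.19 and 0.07 ± 0.08.

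The extracellular matrix list held 37 tested genes, and without diet 13 were higher in heavier mice at an unadjusted p under 0.05 (against 5.74% of all genes), with a median slope of 0.10. Within diets 2 were (against 1.62% of all genes), Mmp2 and Col15a1, and the median was 0.03. Without LP mice 13 and 20 that median was below 0, at −0.04, with 1 member higher and 1 lower, and Col15a1, a collagen chain, had 0.19 ± 0.09 (unadjusted p = 0.0637). Mmp2, a gelatinase that degrades matrix, had the same slope in both fits, 0.18 ± 0.08 within diets (unadjusted p = 0.0312) and 0.19 ± 0.03 without diet (adjusted p = 0.0137). Its normalized count from the lightest to the heaviest mouse was 511, 494, 561, 577, and 604 in NP and 504, 621, 451, 586, and 688 in HF + LP. LP mice lay between 448 and 519 and HF mice between 613 and 835, so these groups did not overlap. Without HF + LP mouse 4 the slope was 0.14 (unadjusted p = 0.114). Fstl1, a secreted glycoprotein of the heart and a diet-linked gene, had −0.11 ± 0.09 within diets and 0.22 ± 0.06 without diet.

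The smooth muscle and pericyte list had medians of opposite sign in the fits within and without diet. Of 13 tested genes, 10 had a slope above 0 within diets (median 0.13), and 3 were higher at an unadjusted p under 0.05 (against 1.62% of all genes), Acta2, Myh11, and Mylk. Without diet 3 had a slope above 0 (median −0.11), and 4 were lower in heavier mice at an unadjusted p under 0.05 (against 10% of all genes) and 1 higher. Acta2, smooth muscle actin, had 0.71 ± 0.20 within diets (unadjusted p = 0.0024) and −0.11 ± 0.15 without diet. Its normalized count from the lightest to the heaviest mouse was 981, 1084, 823, 1407, and 2035 in NP, 1142, 776, 875, 1495, and 3570.1 in LP, 1069.8, 1322, 849, 1677, and 2378 in HF + LP, and 692, 815, 676, 825, and 740.0 in HF. The heaviest mouse had the highest level in NP, LP, and HF + LP, and all HF mice lay between 676 and 825.

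LP mouse 13, with its adipocyte and atrial markers, weighs on these genes. Within LP alone the slope of Acta2 was 2.796 ± 0.58, against 0.44 ± 0.22 in NP and 0.72 ± 0.28 in HF + LP. Without LP mice 13 and 20 the slope within diets was 0.55 ± 0.14 (unadjusted p = 0.0013), that of Mylk, the myosin light chain kinase, moved from 0.26 ± 0.12 to 0.18 ± 0.09 (unadjusted p = 0.061), and the median of the list was 0.06. The summed level of 5 mural cell markers, which include Acta2 and Myh11, ranged from 461 to 529.8 CPM in NP, from 405 to 615 CPM in LP, from 447 to 586 CPM in HF, and from 411 to 621 CPM in HF + LP. The heaviest mouse had the highest sum in NP (529.8 CPM) and in HF + LP, where it was the highest of all 20 libraries (621 CPM). Whether the amount of vessel wall in the samples had a part was not tested. A strict CArG box, the element of smooth muscle genes, was in 0 of the 10 promoters matched, against 1.81% of genes, which says only that these letters are not in the window.

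Genes that answer to PPAR were above 0 in 20 of 27 within diets (against 6826 of 13991 genes tested), with a median slope of 0.09 (0.07 without diet). At an unadjusted p under 0.05, 3 were higher within diets (against 1.62% of all genes) and 10 without diet (against 5.74%). Angptl4, an inhibitor of lipoprotein lipase, had 0.90 ± 0.36 within diets (unadjusted p = 0.0221) and 0.35 ± 0.23 without diet, and Ucp3, a mitochondrial carrier, had 0.46 ± 0.19 (unadjusted p = 0.0259) and 0.11 ± 0.11. The normalized count of Angptl4 was 49.9, 48.6, 17.05, 74.8, and 241 in NP from the lightest to the heaviest mouse. NP mouse 4, the heaviest, stood above the other NP mice, and without it the slopes were 0.48 (unadjusted p = 0.25) for Angptl4 and 0.16 (unadjusted p = 0.441) for Ucp3. Of 18 genes of fatty acid oxidation, 12 had a slope above 0 within diets (median 0.03), none with an unadjusted p under 0.05, and 4 were higher at that threshold without diet, against 5.74% of all genes. Without LP mice 13 and 20, the members higher at that threshold within diets went from 3 to 5 of the PPAR list and from 0 to 2 of the fatty acid oxidation list, against 219 of 14141 genes tested in that fit.

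Of 22 genes of hypertrophy and stress, 16 had a slope below 0 within diets, with a median of −0.14, and 14 had one above 0 without diet, with a median of 0.10. At an unadjusted p under 0.05, 6 were higher and 2 lower without diet (against 5.74% and 10% of all genes). Within diets 1 was higher and 1 lower (against 1.62% and 1.06%). The median within diets was −0.06 without HF + LP mouse 5. Nppb, the B-type natriuretic peptide of the ventricle, had −0.74 ± 0.27 within diets (unadjusted p = 0.0142) and −0.06 ± 0.14 without diet. The former had an unadjusted p of 0.0607 without NP mouse 6 and 0.0581 without HF + LP mouse 3. Its normalized count from the lightest to the heaviest mouse was 339.8, 227, 188, 61.6, and 166 in NP and 435, 187, 326, 123, and 131 in HF + LP, so the lightest mouse was highest in both. In LP it was 210.5, 571, 160.0, 491, and 327 and in HF 363, 365, 341, 566, and 229.7, where the lightest mouse was not the highest. Fhl1, a sarcomere-associated stress sensor, had 0.29 ± 0.10 (unadjusted p = 0.0109, and 0.0505 without NP mouse 4) and 0.11 ± 0.05. Ankrd1, a titin-binding stress protein, had −0.25 ± 0.14 and −0.03 ± 0.07, and without NP mouse 4 the slope within diets was −0.40 (unadjusted p = 0.0157).

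ATF4, the factor of the amino acid response, governs a list of 32 tested genes, of which 8 were higher in heavier mice without diet at an unadjusted p under 0.05 (against 5.74% of all genes) and 1 within diets (against 1.62%), Slc3a2, an amino acid transporter chain, with 0.20 ± 0.08 (unadjusted p = 0.0183, and 0.059 without HF + LP mouse 4). The median was 0.01 within diets and 0.05 without diet. Mthfd2, a mitochondrial folate enzyme and diet-linked gene, had 0.07 ± 0.15 within diets and 0.41 ± 0.10 without diet. Gdf15, a stress hormone, had −0.49 ± 0.28 and 0.51 ± 0.15, and its slope within diets was −0.21 without NP mouse 6 (unadjusted p = 0.548) and −0.71 without NP mouse 4, just past the unadjusted threshold of 0.05.

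Adipocyte genes depended on LP mouse 13 and LP mouse 20. Of 26 genes, 16 were lower in heavier mice without diet at an unadjusted p under 0.05 (median −0.91, against 10% of all genes lower), and within diets 1 was higher and 2 were lower (median 0.08, median SE 0.61). Without these libraries 6 were lower and 1 higher without diet, with a median of −0.14. With the remaining libraries 12 of 26 were lower within diets and none higher, with a median of −0.29, against 179 lower of 14141 genes tested in that fit. Both mice were set apart by adipocyte markers among others, and LP mouse 13 is the heaviest LP mouse. The choice thus used the kind of level that is described, and nothing is read from these counts. Car3, a carbonic anhydrase of fat and muscle, had −1.43 ± 0.87 with all libraries and −1.93 ± 0.66 without LP mice 13 and 20 (unadjusted p = 0.0094). Aqp7, a glycerol channel, had −0.36 ± 0.14 and −0.29 ± 0.13. The lightest mouse had the most adipocyte marker counts in NP (25.2 CPM), HF (72.4 CPM), and HF + LP (18.8 CPM), whereas in LP the heaviest mouse had.

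**Figure D4:**
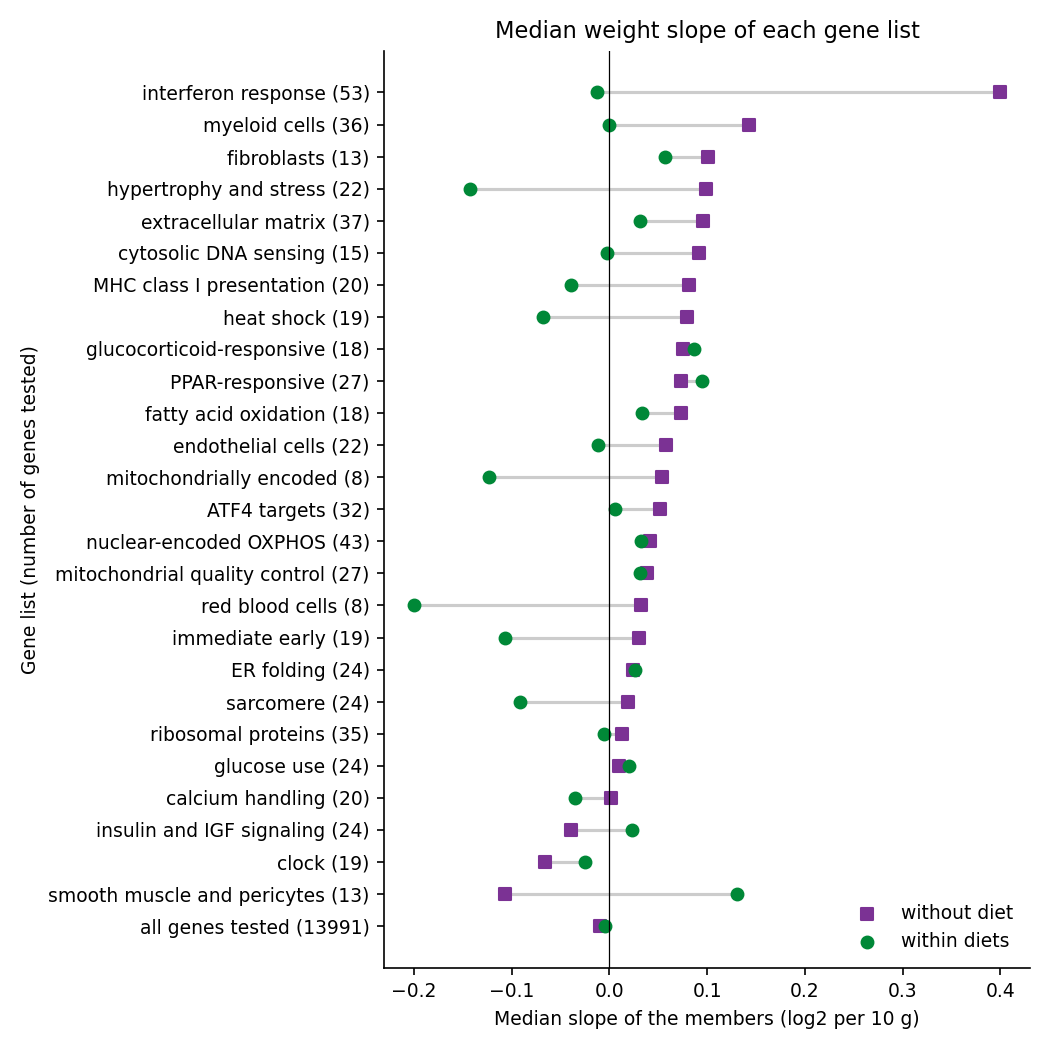
Median slope of the members as log2 change per 10 g (horizontal axis) for 26 gene lists and all genes tested (vertical axis, with the number of genes tested), within diets (green circles) and without diet (purple squares). The lists for adipocytes, lymphocytes, and atrial muscle, whose levels rest on a few libraries, are left out. The interferon response has the widest gap, from 0.40 without diet to −0.01 within diets, and smooth muscle lies below 0 without diet and above 0 within diets.

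The lists of MHC class I presentation, cytosolic DNA sensing, insulin and IGF signaling, glucose use, sarcomere, calcium handling, nuclear-encoded OXPHOS, mitochondrially encoded genes, mitochondrial quality control, ribosomal proteins, ER folding, heat shock, clock, glucocorticoid-responsive and immediate early genes, endothelial cells, fibroblasts, and red blood cells held 0 or 1 member each with an unadjusted p under 0.05 within diets, against 2.69% of all genes. Without diet, the members higher in heavier mice at that threshold (against 5.74% of all genes) were 7 of 15 for cytosolic DNA sensing, 6 of 18 for glucocorticoid-responsive genes, 5 of 22 for endothelial cells, 4 of 13 for fibroblasts, and 0 to 3 for each of the other lists just named. The 5 endothelial members became 0 without LP mice 13 and 20, with 2 lower, while cytosolic DNA sensing still had 7. In that fit 7 of 20 MHC class I genes, up from 3, and 6 of 13 fibroblast genes were higher. The sarcomere genes that were lower went from 3 to 7 of 24. All genes tested in that fit gave 784 higher and 1134 lower of 14141. With all libraries, 5 of 24 insulin and IGF signaling genes and 0 to 3 of each other list were lower without diet, against 10% of all genes. Their medians within diets ran from −0.20 for red blood cells to 0.09 for glucocorticoid-responsive genes. Of 43 nuclear-encoded OXPHOS genes, subunits of the respiratory chain, none had an unadjusted p under 0.05 within diets and 1 did without diet, with medians of 0.03 and 0.04. Without LP mice 13 and 20, 2 members each of the OXPHOS, calcium handling, and heat shock lists were higher at that threshold within diets (against 219 of 14141 genes tested in that fit), the median of fibroblast genes went from 0.06 to −0.03, and that of glucocorticoid-responsive genes from 0.09 to 0.01. The 35 ribosomal protein genes had medians of −0.01 and 0.01, none with an unadjusted p under 0.05. Atrial genes had a median SE of 1.15 within diets, so no slope could be read from them, and Nppa, the atrial natriuretic peptide, had −0.22 ± 1.08. Of 10 lymphocyte genes, 6 were lower in heavier mice without diet at an unadjusted p under 0.05 (against 10% of all genes) and 1 was without LP mice 13 and 20.

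Of the 12 genes with the smallest p within diets, 6 in each direction, Myh11 was the only one linked to diet. Cdr2l had 0.47 ± 0.13 (unadjusted p = 0.0019), with a normalized count of 48.2, 36.2, 57.7, 78.1, and 84.7 in NP from the lightest to the heaviest mouse. Mcm3ap, which takes part in mRNA export, had 0.30 ± 0.09, Eipr1, a factor of vesicle transport, had 0.31 ± 0.09, and Maob, the monoamine oxidase of the outer mitochondrial membrane, had 0.43 ± 0.13. In the other direction were Hlx, a homeobox factor, with −0.51 ± 0.12 (unadjusted p = 0.000407), Pdpk1, the kinase that activates AKT in insulin signaling, with −0.33 ± 0.09, Tsr2, which takes part in ribosome maturation, with −0.29 ± 0.08, Fam102b with −0.37 ± 0.10, Aph1b, a gamma-secretase subunit, with −0.55 ± 0.15, and Gm17491, a transcript in an intron of Slc20a2, with −0.46 ± 0.13. Without diet, the slopes of Hlx, Tsr2, Fam102b, Mcm3ap, and Eipr1 lay between −0.03 and 0.05. All of these genes had an adjusted p of 0.999 within diets. Each kept an unadjusted p under 0.05 when any 1 mouse was left out. Since they were chosen for their small p on the same mice, nothing is read from that.

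Transcripts that are not protein-coding made up 10.2% of all genes tested that have a gene type. Without diet, this share was 24.3% of the genes lower at an unadjusted p under 0.05 and 4.98% of those higher, and within diets it was 24.8% and 5.75%. At an adjusted p under 0.05 without diet, it was 43 of 93 lower genes and 0 of 50 higher genes. Named for their small p without diet were unclassified transcripts inside host genes on the same strand: C130089K02Rik in Maml3 had −0.65 ± 0.10 without diet and −0.30 ± 0.21 within diets, Gm38197 in Mecom had −0.40 ± 0.07 and −0.25 ± 0.14, and Gm45203 in Idh2 had −0.51 ± 0.09 and −0.13 ± 0.16. Without NP mouse 4 the slope within diets was −0.08 for C130089K02Rik and −0.05 for Gm45203. Without HF + LP mouse 3 that of Gm38197 was −0.11. Reads of the host transcript may count toward such genes, since the rule for overlapping genes is not given.

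With weight added to the diet model, the number of genes called for diet went from 67 to 2 (0.0143%), Gm42972 and 5430431A17Rik, and 63 of the 67 had an unadjusted p under 0.05, against 7.19% of all genes. Nothing is read from that count either, since the 67 were chosen by the diet test on the same libraries. With DESeq2 the number went from 327 to 32, and with limma-trend from 53 to 2. The median absolute HF minus NP difference of the 67 was 0.94 without weight and 0.96 with it, and 66 of 67 kept their sign, Fbp2 being the exception. Their median SE went from 0.18 to 0.27, and over all genes from 0.19 to 0.31. Over all genes the median absolute difference went from 0.17 to 0.24. When each weight was expressed as a deviation from its diet mean, in SDs of that diet, which shares nothing with diet, 51 genes were called for diet.

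In HF compared to NP, 37 genes (0.264%) were called without weight and 2 (0.0143%) with weight. In HF + LP compared to NP, 4 (0.0286%) and 2 (0.0143%) were called, and in HF + LP compared to LP 14 (0.1%) and 0 (0%, with 1125 genes at the unadjusted threshold of 0.05). In HF + LP compared to HF and in LP compared to NP, edgeR called 0 genes (0%) in either fit, with 677 and 698 genes at the unadjusted threshold in the former and 1012 and 780 in the latter. These comparisons share groups of mice.

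**Figure D5:**
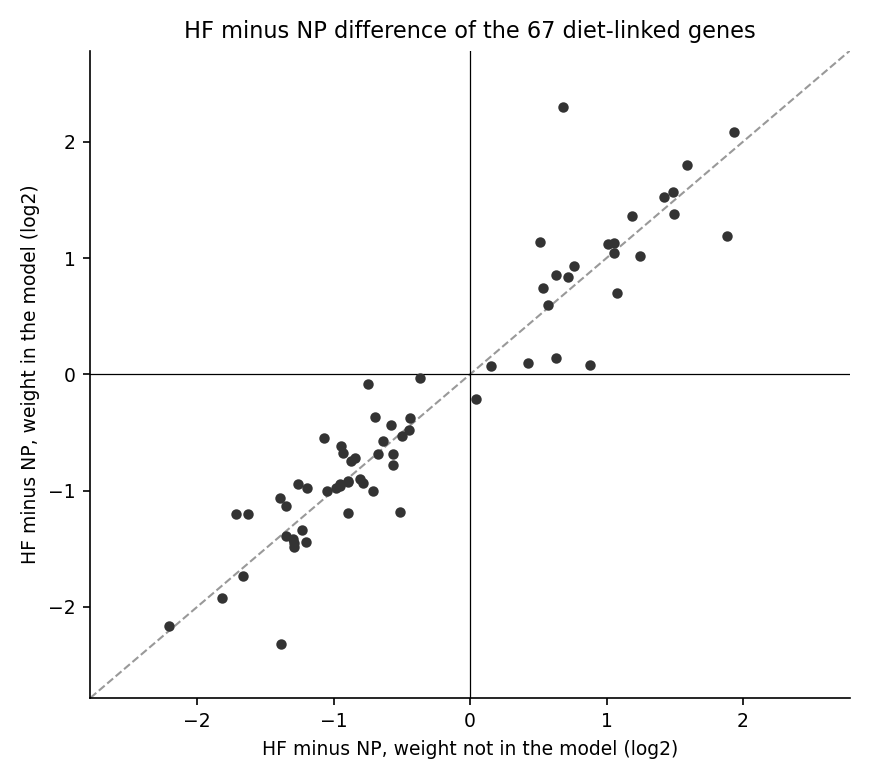
HF minus NP difference (log2) of the 67 diet-linked genes with body weight in the model (vertical axis) against the same difference without it (horizontal axis), with 1 point per gene and a dashed line where both are equal. The points follow the line, and the median absolute difference is 0.94 without and 0.96 with weight.

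Gm42972, an unclassified transcript inside Ank2 on chromosome 3 (GRCm38, 127266673 to 127272289), had an HF minus NP difference of −1.82 ± 0.13 on the log2 scale without weight and −1.93 ± 0.19 with weight (adjusted p = 4.82e-05 from edgeR). Its normalized count was 172 to 184 in NP, 121 to 173 in LP, 68.7 to 101 in HF + LP, and 42.2 to 53.4 in HF, and its slope within diets was 0.07 ± 0.09. 5430431A17Rik, a long noncoding RNA gene on chromosome 7, had −2.21 ± 0.18 and −2.166 ± 0.27, with a slope within diets of −0.02 ± 0.13. Kmt2d, a histone methyltransferase, had an HF minus NP difference of −0.89 ± 0.11 without weight and −0.93 ± 0.16 with it, and a slope within diets of 0.02 ± 0.08. Neat1, the noncoding RNA of paraspeckles, had a slope of 0.16 ± 0.11 within diets and −0.39 ± 0.09 without diet.

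Other diet-linked genes moved closer to 0 with weight in the model. The HF minus NP difference of Gm42480 went from −1.07 ± 0.15 to −0.54 ± 0.18, that of Hsd17b11 from 0.43 ± 0.13 to 0.09 ± 0.18, and that of Zfhx3 from −0.70 ± 0.13 to −0.37 ± 0.18. Irf7 went from 1.88 ± 0.45 to 1.19 ± 0.80, and Mthfd2 from 1.49 ± 0.20 to 1.38 ± 0.32. Myh11 went the other way, from −1.39 ± 0.32 to −2.32 ± 0.39.

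Some mice of different diets had nearly the same weight, and their levels are given side by side without a test, since each is 1 mouse. At 56.1 g, HF mouse 3 had 52.4 normalized counts of Gm42972 and HF + LP mouse 4 had 84.0, and Irf7 was 479 and 319. At 52.3 and 52.5 g, NP mouse 4 had 179 of Gm42972 and HF + LP mouse 5 had 101, while Gm42480 was 239 and 223. At 33.3 g, NP mouse 6 and LP mouse 2 had 174 and 142 of Gm42972 and 403 and 329.9 of Gm42480.

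Slopes that differ between diets were tested as well, and edgeR called 0 genes (0%), with 843 genes at an unadjusted p under 0.05. In LP alone, 7 genes (0.05%) were called, and 2067 had an unadjusted p under 0.05, against 129 in NP, 274 in HF, and 462 in HF + LP. The heaviest LP mouse is mouse 13, whose library stood apart.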

How the data were processed

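Left ventricle RNA of 20 mice was made into QuantSeq 3′ libraries, read at 75 bp, and aligned with BlueBee by the authors, who deposited raw counts per Ensembl gene. The labels name GRCm38 and DESeq2 1.22.2 in the submitters' processing notes. The counting program, its strand setting, and the annotation are not given in the sources used here. Precision is limited by 5 mice per diet and by totals of 12559607 to 23331907 counts. Each mouse is a separate animal by its label, and 1 LP label reads as a second sample of its animal.

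Of 15956 listed genes, 15917 had a symbol and a GENCODE M21 entry, and filterByExpr by diet kept 13991. In R 4.3.3, edgeR 4.0.16 fitted counts scaled by TMM against diet plus weight, weight alone, and diet alone, with p-values adjusted over every tested gene (Benjamini-Hochberg). SEs came from the quasi-likelihood F. Normalized counts were scaled to the mean library size. Log2 CPM used a prior count of 2. Library measures were tested with 100000 permutations of weights within diets (two-sided). The fit was tested on simulated data.

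Named genes were the 6 smallest p per direction within diets, 5 per direction without diet, 6 for diet, up to 3 members of a list, and 10 genes named before. A few genes under this rule are not reported here. The genes and lists were chosen with earlier results of these data known. Alternatives were RLE, limma 3.58.1, DESeq2 1.42.0, filters, thresholds, covariates, left-out diets and mice, and a replicate block.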

Additional observations from a re-analysis of the deposited data

Results flagged for a closer look

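In the 76 groups of 5 mice examined, 8 held a mouse that stood apart by Dixon's test, where chance flags about 1 group in 20. LP mouse 13 accounted for 4 of them: Acta2 at 3570.1 normalized counts against 776 to 1495 in the other LP mice, Myh11 at 986 against 221 to 375, Fhl1 at 1641 against 1035 to 1167, and Cdr2l at 107 against 59.6 to 71.8. This library also held the most adipocyte and atrial marker counts, and their part in these values was not tested. NP mouse 4, the heaviest NP mouse, had 241 normalized counts of Angptl4 against 17.05 to 74.8 in the other NP mice. HF mouse 2 had 158 of Myh11 against 114 to 126, HF mouse 4 had 42.2 of Gm42972 against 51.4 to 53.4, and LP mouse 5 had 557 of Hsd17b11 against 593 to 605.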

How the results depend on the processing

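No gene was called for weight within diets under any alternative except the libraries with the number 3 in their name, which called 1 and had 813 genes at an unadjusted p under 0.05, and leaving out each mouse in turn gave 0 throughout. The 376 genes at that p became 587 with weight in SDs of its own diet, 906 with atrial and adipocyte marker sums as covariates, an alternative chosen after seeing the data, and 226 in NP and HF + LP alone. With each mouse left out they ranged from 255 to 546.

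The 1 gene called without diet became 11 with at least 10 counts in every library, 144 at an adjusted p under 0.05, 134 with DESeq2, 2 with limma-trend, 2 with the marker sums, 12 without NP, and 0 without HF, without HF + LP, in NP and HF + LP alone, and in libraries numbered 3. Leaving out single mice gave 0 to 42, the highest without NP mouse 4. The 67 genes called for diet became 252 at an adjusted p under 0.05, 327 with DESeq2, 38 with the library number as a covariate, 34 with the marker sums, 9 without NP, 35 without LP, 3 without HF, 30 without HF + LP, 2 in NP and HF + LP alone, and 1 in libraries numbered 3. Leaving out single mice gave 33 (without HF mouse 4) to 101 (without LP mouse 5), with 36 and 34 without HF mice 2 and 5. The 2 genes called for diet with weight became 8 at an adjusted p under 0.05, 51 with weight in SDs, 32 with DESeq2, 0 without NP, 1 without HF, 1 without HF + LP, and 0 in libraries numbered 3, and 2 to 4 without single mice. Adding weight took the pairwise counts from 37 to 2 in HF compared to NP, from 14 to 0 in HF + LP compared to LP, and from 4 to 2 in HF + LP compared to NP. The cause of these changes was not tested.

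The animal numbers did not pair the mice: the mean correlation of same-numbered mice of different diets in their deviations from the diet means was −0.0235 over 16 pairs. With the animal number as a replicate block, 0 genes were called for weight within diets (335 at an unadjusted p under 0.05), 0 without diet, 2 for diet, and 0 for diet with weight. In that fit the median slope within diets was −0.32 for the interferon response, −0.43 for hypertrophy and stress, −0.23 for extracellular matrix, and −0.01 for smooth muscle. Among other lists it was −0.26 for cytosolic DNA sensing, −0.20 for MHC class I presentation, and 0.20 for nuclear-encoded OXPHOS. For sarcomere genes it was 0.17, against −0.09 without the block.

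No slope of a named gene with an unadjusted p under 0.05 within diets changed sign under the alternatives in which slopes were compared. Slopes were not compared for the marker sums, the libraries numbered 3, limma-trend, and DESeq2. Over all 57 named slopes and the alternatives compared, 120 values missed the unadjusted threshold that the slope passed with all libraries. For slopes that had not passed it, 24 values passed it and 39 moved by more than 1 SE. Of the 20 fits that leave out 1 mouse, the slope within diets had an unadjusted p, rounded to 3 digits, under 0.05 in 9 for Mylk, 12 for Col15a1, 16 for Mmp2, 17 each for Hsd17b11 and Zfhx3, and 18 each for Ucp3 and Aqp7. Of the list medians, 15 values moved by more than the median SE of their members.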
